A study of Homo sapiens with 7 samples.

Results

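RKO cells depleted of DNMT1 were read on 2 of the 7 microarrays of the series. RKO is an established human colon carcinoma line known for mismatch repair deficiency and for dense methylation of many CpG island promoters. Both arrays were chosen by their sample labels alone. The RNA of RKO cells carrying DNMT1 shRNA number 49 (label Cy3) or number 51 (label Cy5) was set against RNA of RKO cells with a non-silencing control in the other dye. Since each short hairpin RNA (shRNA) went with 1 dye orientation, the effects of shRNA and dye cannot be told apart. DLD1 and HT29 cells, also colorectal cancer lines, had the same 2 shRNAs and dyes on 2 arrays each. HCT116 cells had 1 array with an shRNA against UHRF1 (label Cy5). Its label gives the time as d14 and a knockdown efficiency of 60%. All 7 arrays carried total RNA, and no time point is given for the RKO samples. The labels do not say whether a line's arrays came from separate cultures or shared 1 control RNA, and the spread behind the p-values may therefore be only technical.

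DNMT1 copies methyl groups onto the new strand after DNA replication, guided by UHRF1, and DNMT3A and DNMT3B can methylate DNA that carried no mark. Methylation of a CpG-rich promoter goes with a silent gene, and many germ line genes are kept silent in this way outside the testis and ovary. In colorectal cancer some promoters, such as that of the cell cycle inhibitor CDKN2A, gain methylation that normal colon lacks.

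A value is the deposited log ratio of a probe, taken as log2 and read as knockdown over control because DNMT1 lay below 0 on the arrays with DNMT1 shRNA, so DNMT1 is no independent check of the labels. A value of 1 is then 2-fold higher and a value of -1 is 2-fold lower. Ratios hold no expression level, so the colon identity of the cells could not be checked against its markers, and fewer cells of a type cannot be told apart from less RNA per cell. With shRNA 51 the ratios had an interquartile range of 0.968 and 5075 of 41000 probes had no value. With shRNA 49 the range was 0.726 and 329 probes had no value. Of the ratios, 35% with shRNA 49 and 34% with shRNA 51 were held exactly by another probe of the same array, called shared ratios below.

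DNMT1, read by 1 probe, lay at -3.27 with shRNA 49 and at -2.35 with shRNA 51, which is 10.4% and 19.7% of control. Both values lay below the 4 values of DLD1 and HT29, which ran from -2.17 to -0.92. In limma the RKO mean was -2.81 ± 0.32 (SE, n = 2 arrays, spread shared over the 6 DNMT1 arrays), with an adjusted p of 0.0984. It did not pass the threshold of 0.05, and it did (adjusted p = 0.0139) where shared ratios were left out and 10987 genes were tested.

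The other genes of DNA methylation lay on either side of control. Of 23 genes of that list with a value on both RKO arrays, DNMT1 included, 9 lay above 0 on both and 8 below 0 on both, against 28.4% and 25.5% of all 17010 genes measured on both arrays. The de novo methyltransferase DNMT3A lay at 0.56 and 0.04 (probes at 0.35 and -0.47 and at 0.78 and 0.56), and DNMT3B at 0.13 and 0.58. DNMT3L, their catalytically inactive partner, lay at -0.62 and -0.81, both of them shared ratios. UHRF1, a mean of 4 probes that differed on the UHRF1 array (-3.1, -0.18, -2.06 and 0.68), lay at -0.37 and 0.25 in RKO. Its relative UHRF2 lay at 0.30 and 0.18. These 5 genes had adjusted p between 0.376 and 0.943 in limma.

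MBD3, a subunit of the NuRD chromatin remodelling complex, was the only member besides DNMT1 at least 2-fold lower on both arrays, at -1.32 and -1.51 (adjusted p = 0.177). Of all genes 0.647% were at least 2-fold lower on both. MBD3 lay at -0.53 and -0.89 in DLD1 and at 0.17 and 0.15 in HT29. Among readers of methylated DNA, MBD1 (0.38 and 0.19) and ZBTB38 (0.52 and 0.80) lay above 0 on both arrays, and ZBTB33 (-0.24 and -0.38) lay below. MBD2 (-0.64 and 0.69), MBD4 (0.51 and -0.09) and ZBTB4 (0.60 and -0.37) had opposite signs on the arrays. Of the enzymes that oxidise or remove methylated bases, TET1 lay at 0.30 and 0.72 (shared ratios), TET2 at -0.33 and -0.79, and TDG at -0.17 and -0.25. The remodeller HELLS (0.09 and 0.43), the RNA methyltransferase TRDMT1 (0.20 and 0.90), the deubiquitinase USP7 (-0.09 and -0.15, its probes with opposite signs), and the repressors EHMT1 (0.16 and 0.23), SETDB1 (0.13 and -0.66) and TRIM28 (0.09 and -0.42) stayed within 2-fold.

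Over all genes the 2 RKO arrays agreed in sign for 54.0% of 17010 genes, 4832 above 0 on both and 4346 below 0 on both. The shares in DLD1 were 28.2% above and 27.5% below of 17874 genes, and in HT29 27.3% and 24.9% of 16963 genes. Across genes, which are not independent replicates, Pearson's r between the RKO arrays was 0.249. Larger moves were more often upward. At least 2-fold higher on both arrays were 343 genes (2.02%), and at least 2-fold lower on both were 110 (0.647%). DLD1 had 338 (1.89%) and 67 (0.375%) such genes, HT29 267 (1.57%) and 69 (0.407%). In RKO 65 genes were 2-fold higher with shRNA 49 and 2-fold lower with shRNA 51, and 50 the reverse. With shRNA 51 the ratio was the larger of the 2 for 262 of the 343 higher genes and 81 of the 110 lower genes. At the 2-fold limit, MSL3B (1.0 and 1.22) and CA11 (-1.0 and -1.03) lay just inside, and KLHL17 (0.998 and 1.06) and SLC1A1 (-0.998 and -1.34) just outside.

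**Figure D1:**
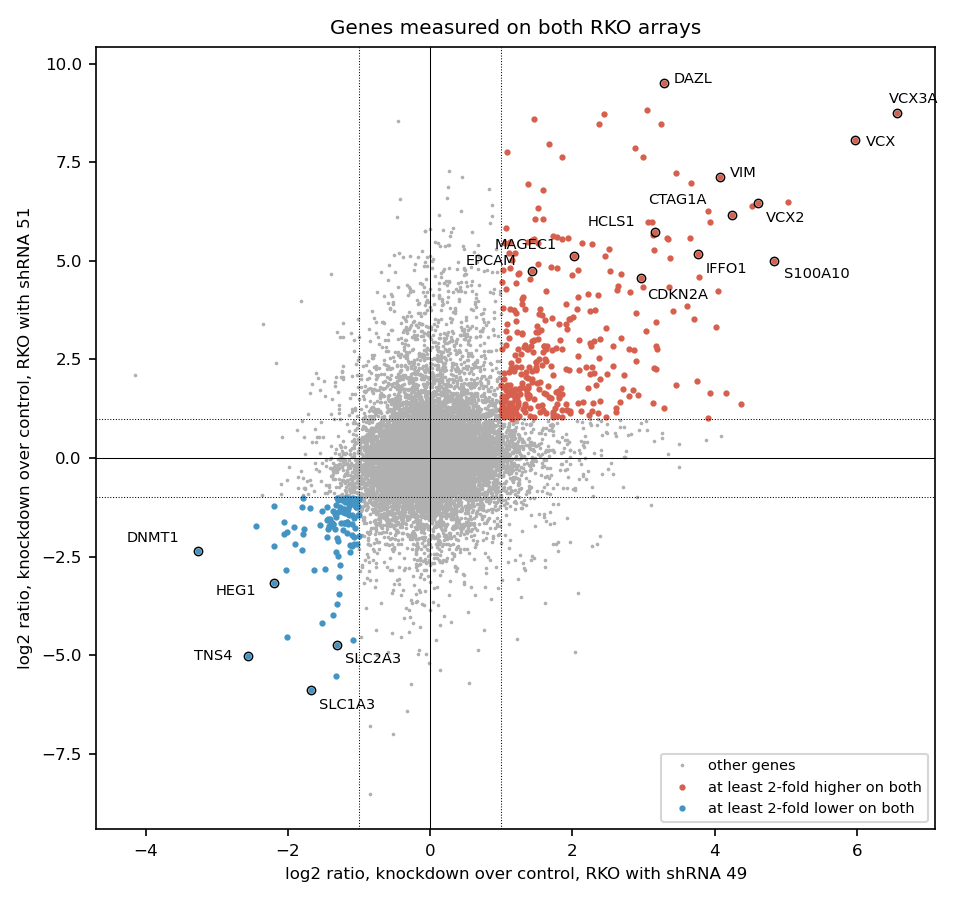
Log2 ratio of knockdown over control in RKO cells with shRNA 49 (horizontal axis) against shRNA 51 (vertical axis), 1 point per gene with a value on both arrays. Red and blue points are at least 2-fold higher and lower on both arrays (dotted lines mark 2-fold), circled genes are named in the text, and the higher genes reach further with shRNA 51 than with shRNA 49.

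The question of which genes change in RKO was put to limma on all 6 DNMT1 arrays, with 1 mean per line and a term for the shRNA. Of 16799 genes tested, 10 rose (0.0595%) and 0 fell (0.0%), and 2200 had an unadjusted p under 0.05, 1420 of them higher and 780 lower. The 10 genes were VCX3A, VCX, VCX2, VCY, CTAG1A, MAGEC1, VIM, IFFO1, HCLS1 and S100A10. With each of the 4 DLD1 and HT29 arrays, or the RKO array with shRNA 51, left out in turn, 0 genes rose, and 0 rose without the shRNA term or with the RKO arrays alone. Without the RKO array with shRNA 49, 240 rose and 71 fell, and the 240 held all of the 10. Where shared ratios were left out, 132 of 10987 genes rose and 12 fell. Of the genes named here, the 132 included S100A2, TNFRSF14, UCHL1, CDKN2A, SOHLH1, LAMB3 and KRT7, and the 12 included DNMT1, TNS4, HEG1, RRP15, CLDND1 and ZNF271P. In the fit with all ratios, PCP4 had the smallest adjusted p of the genes below control, 0.0792.

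To show the sequence in front of these genes, the 250 bases before the RefSeq start (assembly GRCh38.p14, coding strand, 5′ to 3′) are printed for 5 genes that lay far above control, with CG dinucleotides, the sites DNMT1 methylates, in capitals. S100A10 (chr1:151993860-151994109, minus strand) held 24 CG, UCHL1 (chr4:41256678-41256927, plus strand) 20, VIM (chr10:17227991-17228240, plus strand) 8 and VCX3A (chrX:6535119-6535368, minus strand) 1. CDKN2A has 2 starts in the table, the upstream one (chr9:21995325-21995574, minus strand) with 24 and the downstream one (chr9:21974858-21975107, minus strand) with 20. The median was 11 over all 27305 promoters in the RefSeq table and 18.3 over the genes measured on both RKO arrays, with starts of a gene averaged. Of the 343 higher genes 71.4% had a promoter in the table, under the 80% needed, so a comparison of CG content between gene groups was void.
S100A10: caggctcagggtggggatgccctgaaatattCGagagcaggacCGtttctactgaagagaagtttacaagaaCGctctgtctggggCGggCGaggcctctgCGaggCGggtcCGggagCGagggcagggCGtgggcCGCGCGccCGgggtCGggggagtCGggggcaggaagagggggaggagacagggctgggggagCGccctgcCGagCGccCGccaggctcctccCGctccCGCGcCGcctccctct
UCHL1: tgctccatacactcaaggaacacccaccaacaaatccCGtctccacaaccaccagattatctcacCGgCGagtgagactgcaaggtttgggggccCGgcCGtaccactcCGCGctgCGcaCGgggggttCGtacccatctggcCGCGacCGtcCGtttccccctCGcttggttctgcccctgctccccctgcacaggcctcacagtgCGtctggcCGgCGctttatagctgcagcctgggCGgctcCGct
CDKN2A upstream start: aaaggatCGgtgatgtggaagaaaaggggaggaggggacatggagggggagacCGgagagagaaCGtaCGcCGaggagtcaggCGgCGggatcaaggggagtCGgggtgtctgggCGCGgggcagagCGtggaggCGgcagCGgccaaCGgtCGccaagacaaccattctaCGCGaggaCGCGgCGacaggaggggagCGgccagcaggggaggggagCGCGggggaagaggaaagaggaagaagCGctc
CDKN2A downstream start: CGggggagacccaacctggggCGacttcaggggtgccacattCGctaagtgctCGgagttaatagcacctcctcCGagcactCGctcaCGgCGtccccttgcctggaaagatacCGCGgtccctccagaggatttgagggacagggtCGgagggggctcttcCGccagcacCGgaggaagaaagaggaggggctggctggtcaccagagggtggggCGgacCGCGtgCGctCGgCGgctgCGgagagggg
VIM: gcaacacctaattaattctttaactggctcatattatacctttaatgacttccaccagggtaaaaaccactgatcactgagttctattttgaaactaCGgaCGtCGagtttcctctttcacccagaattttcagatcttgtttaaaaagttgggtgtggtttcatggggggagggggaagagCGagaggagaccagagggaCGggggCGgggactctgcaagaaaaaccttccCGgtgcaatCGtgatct
VCX3A: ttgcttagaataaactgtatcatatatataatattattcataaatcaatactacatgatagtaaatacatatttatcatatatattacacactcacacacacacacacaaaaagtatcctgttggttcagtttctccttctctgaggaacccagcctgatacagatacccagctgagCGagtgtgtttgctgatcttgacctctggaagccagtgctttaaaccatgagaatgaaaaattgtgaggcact

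VCX3A, VCX and VCX2 belong to a family expressed in male germ cells, on chromosome X. VCX3A lay at 6.56 with shRNA 49 and 8.74 with shRNA 51, 94.5-fold and 427-fold above control, with a mean of 7.65 ± 0.29 (adjusted p = 0.0184). VCX lay at 5.97 and 8.07 (adjusted p = 0.0184) and VCX2 at 4.61 and 6.47 (adjusted p = 0.0344). In DLD1 VCX3A was at 4.51 and 7.46, in HT29 at 4.73 and 8.11, so the family was high in each line, and in each with a larger ratio under shRNA 51. Its copies are near-identical, the 2 probes named VCX2 differ (6.36 and 7.90 against 2.86 and 5.04), and which copy was measured is uncertain. The probe of VCY cannot be told from these X-linked copies, so its values are not given. The promoter of VCX3A, printed above, held 1 CG, that of VCX2 3 and that of VCX 10. Since the measured copy is uncertain, the ratios cannot be tied to any 1 of these promoters.

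Vimentin (VIM), the intermediate filament of mesenchymal cells, rose 48.6-fold in the fit, from 4.07 with shRNA 49 and 7.14 with shRNA 51 (5.60 ± 0.28, adjusted p = 0.0274). A first probe read 4.43 and 7.87 on these arrays and a second probe 3.71 and 6.4. In DLD1 VIM lay at -0.31 and 1.83 and in HT29 at 0.05 and 3.15. IFFO1, a gene of the same filament family, rose too, at 3.76 and 5.17 (4.47 ± 0.24, adjusted p = 0.0318). Both values lay above each of its 4 values in DLD1 and HT29 (0.76 to 2.61). On the UHRF1 array of HCT116, VIM lay at 2.94 and IFFO1 at 3.01. S100A10, the partner of annexin A2, lay at 4.83 and 4.98, the closest pair of the genes that rose (4.91 ± 0.28, 30.0-fold, adjusted p = 0.0331). On the 4 arrays of DLD1 and HT29 it lay between -0.39 and 0.68, and on the UHRF1 array at -0.03.

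HCLS1, an actin regulator of blood cells, lay at 3.16 and 5.72 in RKO (4.44 ± 0.28, adjusted p = 0.0413). It was at 0.36 and 1.91 in DLD1 and at 1.58 and 3.35 in HT29, above 0 on all 6 DNMT1 arrays. HCLS1 lay at 3.08 on the UHRF1 array. The tumour antigen gene CTAG1A, whose copy CTAG1B is near-identical, lay at 4.24 and 6.17 (5.2 ± 0.24, adjusted p = 0.0274), and MAGEC1, of the MAGE antigen family, at 2.02 and 5.13 (3.57 ± 0.23, adjusted p = 0.0438). CTAG1A lay between 4.19 and 6.05 in DLD1 and HT29, and RKO lay within 0.02 of the mean of those lines.

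**Figure D2:**
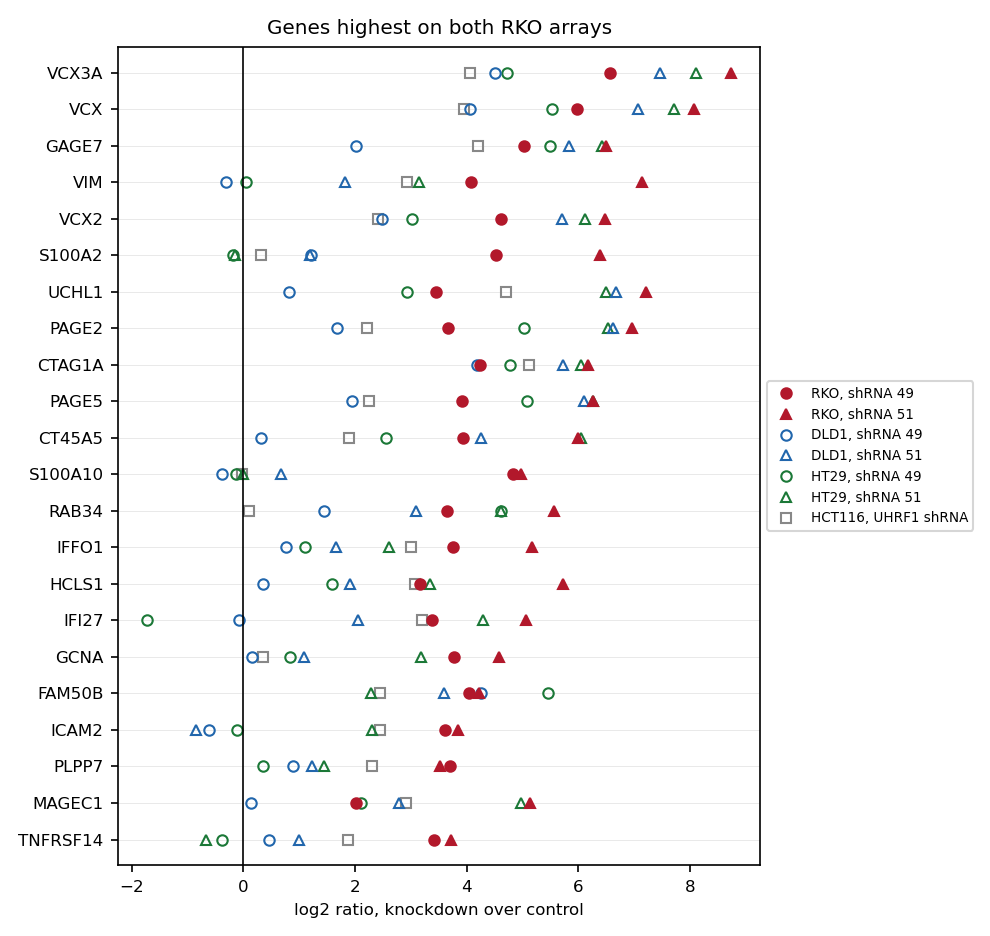
Log2 ratio of knockdown over control (horizontal axis) for genes that rose in RKO and genes with the highest lower-of-2 ratio there, 1 symbol per array (circles shRNA 49, triangles shRNA 51, squares the UHRF1 array), ordered by the RKO mean. RKO (filled red) lies apart from DLD1 and HT29 for S100A10, S100A2 and TNFRSF14, and among them for CTAG1A and FAM50B.

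Cancer-testis antigens, germ cell proteins that many tumours also make, were above control as a list. Of 49 listed genes with any value, 43 had one on both RKO arrays. Of these, 36 (83.7%, against 28.4% of all genes) lay above 0 on both. Below 0 on both lay 1, the ferritin-like FTHL17 (-0.17 and -0.18). Several members are near-identical copies whose probes may read the same RNA, so the counts of this list are not of independent genes. At least 2-fold higher on both were 22, where 2.02% of all genes were. With shRNA 49 the list had a median of 1.18 and with shRNA 51 of 4.58, where that of all genes was 0.003 and 0.05. Of 40 tested, 5 rose (VCX3A, VCX, VCX2, CTAG1A and MAGEC1), where 0.0595% of all tested genes did.

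GAGE7 (5.03 and 6.49), PAGE2 (3.66 and 6.96), PAGE5 (3.91 and 6.27) and CT45A5 (3.93 and 5.99) were high on both RKO arrays without passing, with adjusted p from 0.0572 to 0.0956. They are X-linked tumour antigen families with near-identical copies. MAGEA1 had a wide gap between the arrays, from 3.05 (shRNA 49) to 8.83 (shRNA 51). MAGEA9 (4.56 with shRNA 49) and MAGEA4 (6.43 with shRNA 51) had a value on 1 array each. In DLD1 the list had medians of 0.43 and 3.56, in HT29 of 1.56 and 3.81, and on the UHRF1 array of 0.95.

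**Figure D3:**
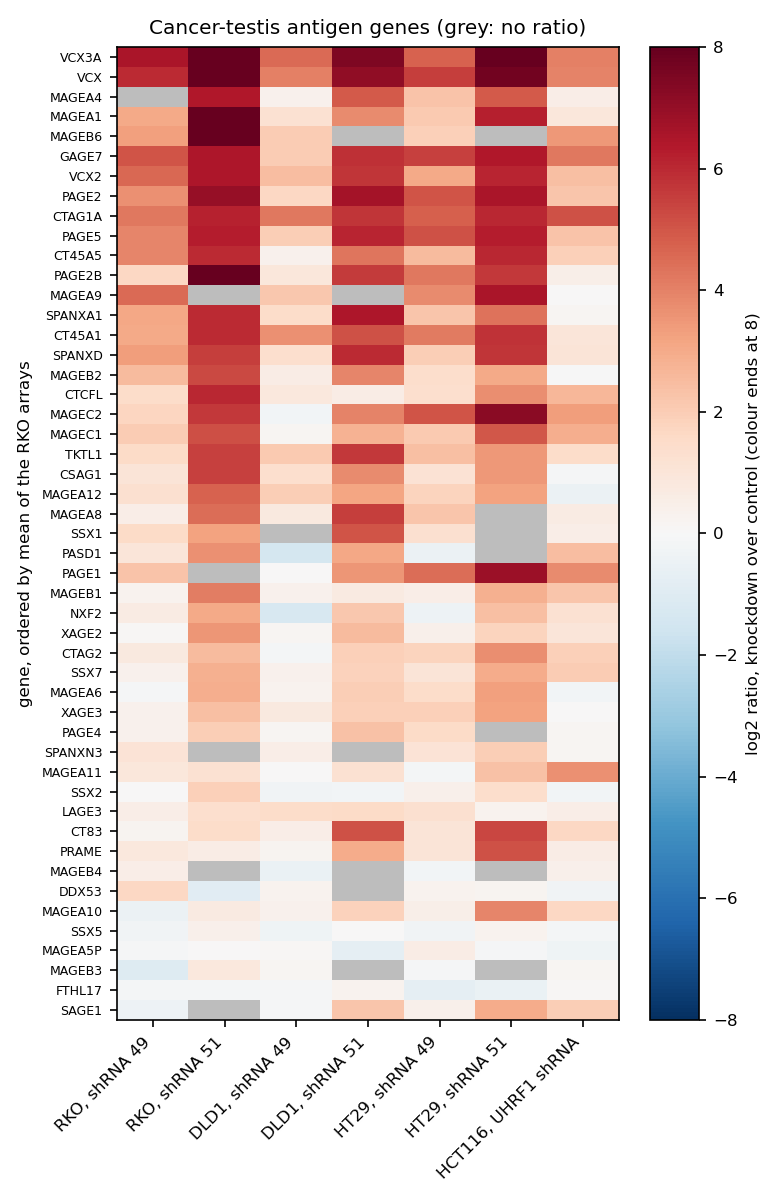
Log2 ratio of knockdown over control (colour, ends at 8) of the 49 cancer-testis antigen genes with a value (rows, ordered by the RKO mean) on the 7 arrays (columns), grey where an array has no ratio. Columns of shRNA 51 are redder than those of shRNA 49 in each line, and VCX3A, VCX and GAGE7 are red on all 7 arrays.

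Germ line genes of meiosis and of the piRNA pathway, which silences transposons, lay above 0 on both arrays for 23 of 44 members (52.3%, against 28.4% of all genes) and below on both for 4 (9.09%, against 25.5%). At least 2-fold higher on both were 10, where 2.02% of all genes were, and 0 of 42 tested passed. DAZL, an RNA-binding protein of germ cells, lay at 3.28 and 9.52 (adjusted p = 0.0782), the highest RKO value of shRNA 51 among the genes named here. The transcription factor SOHLH1 lay at 3.36 and 4.33 (adjusted p = 0.0572, with probes at 2.11 and 2.96 and at 4.61 and 5.71), the Piwi protein PIWIL4 at 2.19 and 2.31, and the germ cell kinase STK31 at 1.78 and 5.60. GCNA, a germ cell peptidase gene on chromosome X, lay at 3.78 and 4.58 (adjusted p = 0.0623), against 0.15 and 1.08 in DLD1 and 0.84 and 3.18 in HT29.

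Genes whose promoters are often hypermethylated in colorectal cancer were above 0 on both RKO arrays for 23 of 66 (34.8%, near the 28.4% of all genes) and below for 7 (10.6%, against 25.5%), and the others split between the arrays. At least 2-fold higher on both were 7 (VIM, CDKN2A, UCHL1, SDC2, RASSF2, SYNE1 and BCAT1), where 2.02% of all genes were. VIM alone of 64 tested passed, where 0.0595% of all tested genes rose. CDKN2A lay at 2.97 with shRNA 49 and 4.55 with shRNA 51, 13.5-fold in the fit (3.76 ± 0.39, adjusted p = 0.0867). Its 2 probes differed, at 4.62 and 6.22 against 1.31 and 2.89, and which of the starts shown above each reads is not stated. It lay at 1.52 and 3.30 in DLD1, and at -0.38 and -0.45 in HT29. UCHL1, a ubiquitin hydrolase, lay at 3.46 and 7.22 (adjusted p = 0.0642) and SDC2, a heparan sulfate proteoglycan, at 1.94 and 5.58 (adjusted p = 0.19, fitted on 5 of the 6 arrays).

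The DNA repair gene MGMT lay at -0.09 and 0.54 and the cell adhesion gene CDH1 at 0.52 and -1.02. HLTF (-0.11 and 5.25), BNIP3 (0.45 and 7.12) and TFPI2 (-0.45 and 8.53) were high with shRNA 51 alone, and their shRNA 49 values are shared ratios. RASSF2, a tumour suppressor, lay at 1.66 and 1.83, the nuclear envelope gene SYNE1 at 1.72 and 1.05, and the amino acid transaminase BCAT1 at 1.30 and 1.23, its shRNA 51 value from shared ratios.

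Genes of the cell surface and skeleton lay on both sides of control. Of 48 mesenchymal and matrix genes 20 (41.7%, against 28.4%) lay above 0 on both RKO arrays and 10 (20.8%, against 25.5%) below. VIM alone of 47 tested passed, where 0.0595% of all tested genes rose. The collagen gene COL5A1 lay at 3.04 and 3.23 (adjusted p = 0.0642, its shRNA 51 value from shared ratios), the protease inhibitor TIMP2 at 3.76 and 1.95, and the secreted glycoprotein FSTL1 at 2.26 and 2.85. CCN2, a secreted matrix protein, was at -1.55 and -1.70. Of 34 genes of the S100, annexin and LIM families 11 (32.4%) lay above on both and 6 (17.6%) below. S100A10 alone of the 34 passed, to be read against the same 0.0595%. S100A2, a calcium-binding protein, was close to the threshold at 4.52 and 6.39 (adjusted p = 0.0572), beside CRIP1 (2.63 and 4.26, adjusted p = 0.0572) and ANXA3 (1.38 and 2.04).

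Epithelial genes lay below 0 on both for 16 of 37 (43.2%, against 25.5%) and above for 8 (21.6%, against 28.4%). The simple epithelial keratins KRT8 (-1.10 and -1.95) and KRT18 (-1.0 and -1.33), which pair in 1 filament, lay below control on both arrays, as did the tight junction gene OCLN (-0.87 and -2.08). Other members were far above control: the adhesion molecule EPCAM lay at 1.44 and 4.74, the laminin chain LAMB3 at 2.53 and 4.75 and KRT7 at 2.27 and 2.30. In limma 0 of the 37 passed, with an adjusted p of 0.126 for LAMB3, 0.155 for KRT7, 0.228 for EPCAM and 0.307 for KRT8. Without shared ratios LAMB3 (adjusted p = 0.0184) and KRT7 (adjusted p = 0.0303) passed.

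Among the highest genes outside these lists, RAB34, a small GTPase of the Golgi and cilia, lay at 3.65 and 5.57 (adjusted p = 0.0642), ICAM2, an adhesion molecule of endothelium and leukocytes, at 3.61 and 3.84, and PLPP7 at 3.70 and 3.53. TNFRSF14, a receptor of the TNF family on lymphocytes, lay at 3.41 and 3.72 (adjusted p = 0.0572). FAM50B, an imprinted gene, lay at 4.05 and 4.23, against 4.26 and 3.59 in DLD1 and 5.46 and 2.28 in HT29. It was the only 1 of 32 imprinted genes at least 2-fold higher on both RKO arrays, where 2.02% of all genes were. Of the 32, 15 (46.9%, against 28.4%) lay above 0 on both and 3 (9.38%, against 25.5%) below. IGF2, the imprinted growth factor, lay at 1.67 and 0.72, with 1 of its 2 probes at 0.21 and -0.34, PPP1R9A at -0.44 and -0.89 and SLC67A1 at 0.66 and 0.43.

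Among genes with an unshared ratio on both RKO arrays, those furthest below control by the smaller of the 2 ratios were TNS4, a tensin of focal adhesions, at -2.56 and -5.01, then DNMT1, and HEG1, a membrane receptor of endothelial junctions, at -2.20 and -3.16. TNS4 had an adjusted p of 0.152 and HEG1 of 0.0956. RARRES1 (-2.19 and -2.24), induced by retinoic acid, PCP4 (-2.02 and -4.54), a calmodulin regulator, and GASK1B (-2.05 and -1.92) followed. NFE2 (-2.01 and -1.87) is a transcription factor of blood cells, TLR3 (-1.80 and -2.33) a receptor for double-stranded RNA, and SLC1A3 (-1.68 and -5.88) a glutamate transporter. In limma 0 of these genes passed with all ratios in the fit.

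CLDND1 (-1.78 and -1.92), the pseudouridine phosphatase PUDP (-2.05 and -1.62), the leukaemia inhibitory factor receptor LIFR (-1.45 and -1.56, the latter from 1 of its 3 probes), the ribosome biogenesis factor RRP15 (-1.62 and -2.83) and the pseudogene ZNF271P (-1.47 and -2.82) complete, with CCN2, the 15 lowest among genes with unshared ratios. In DLD1 and HT29, TNS4 stayed between -0.20 and 0.48, whereas HEG1 lay at 1.77 and 1.85 in HT29. The HEG1 value of HT29 with shRNA 51 rests on 1 of its 2 probes.

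**Figure D4:**
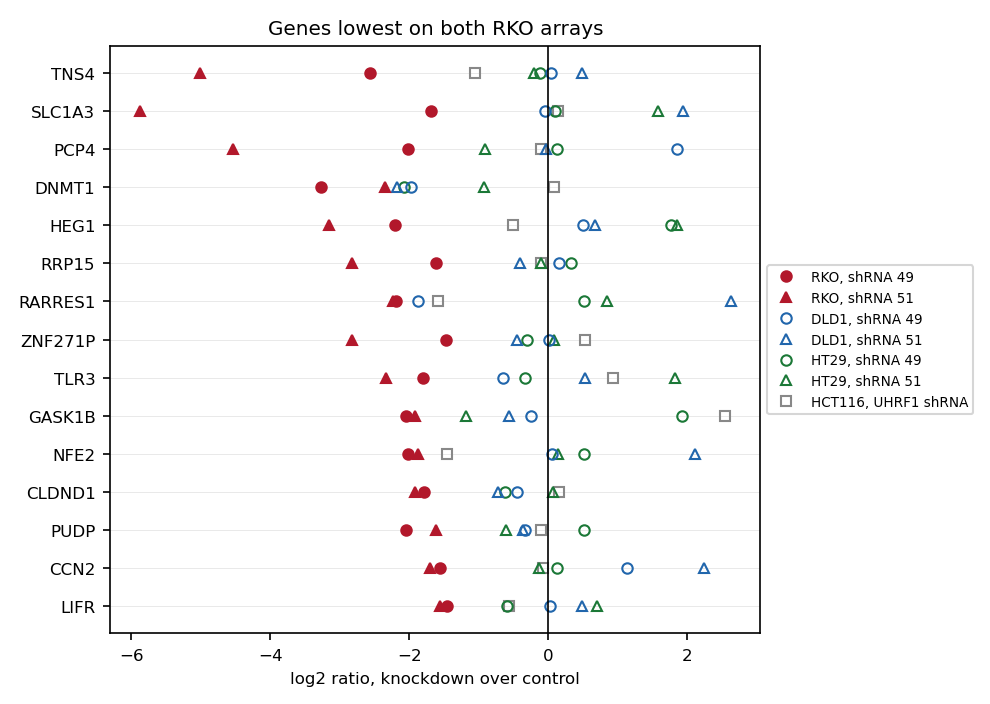
Log2 ratio of knockdown over control (horizontal axis) for the 15 genes furthest below control on both RKO arrays among those with an unshared ratio on each, 1 symbol per array (circles shRNA 49, triangles shRNA 51, squares the UHRF1 array), ordered by the RKO mean. DNMT1 is below 0 on all 6 DNMT1 arrays, while HEG1 and CCN2 are below 0 in RKO and above 0 in HT29 and DLD1 respectively on both arrays.

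Hypoxia and glycolysis genes lay below 0 on both RKO arrays for 21 of 39 (53.8%, against 25.5% of all genes) and above for 1 (2.56%, against 28.4%), BNIP3. The list's median was -0.08 with shRNA 49 and -0.82 with shRNA 51. The glucose transporter SLC2A3 lay at -1.31 and -4.73, the pyruvate dehydrogenase kinase PDK1 at -1.16 and -1.68, the hypoxia-induced hormone ADM at -1.08 and -1.18 and the hexokinase HK2 at -0.74 and -0.75. Of the glycolytic enzymes, LDHA was at -0.49 and -1.59 and GAPDH at -0.37 and -1.04. In limma 0 of the 39 passed, and these 6 genes had adjusted p between 0.199 and 0.389.

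Ribosomal protein genes lay slightly below control, with 42 of 66 (63.6%, against 25.5% of all genes) below 0 on both arrays and 2 (3.03%, against 28.4%) above. Their median was -0.33 and -0.20 in RKO, -0.27 and -0.02 in DLD1, and 0.06 and -0.28 in HT29. RPL28 (-1.14 and -1.10) was the 1 member at least 2-fold lower on both as a mean, where 0.647% of all genes were. Its probes disagreed, at -2.07 and -2.65 against -0.21 and 0.44. RPL22 lay at -1.11 and -0.77, RPL3 at -0.55 and -0.64 and RPS3 at -0.52 and -0.51. In limma 0 of the 66 passed, with an adjusted p of 0.243 for RPL28.

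Wnt target, stem cell and colon differentiation genes lay above 0 on both for 9 of 33 (27.3%, against 28.4%) and below for 12 (36.4%, against 25.5%). The Wnt feedback genes AXIN2 (-0.90 and -3.81, alike on 3 probes) and ZNRF3 (-0.69 and -1.46) and the stem cell marker PROM1 (-1.12 and -2.38, shared ratios) lay below control. ASCL2, a stem cell transcription factor, lay at 0.93 and 1.18, but its probes had opposite signs with shRNA 49 (-0.32 and 2.18) and the shRNA 51 value is a shared ratio of 1 probe. AXIN2 had an adjusted p of 0.187, and 0 of the 33 passed.

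**Figure D5:**
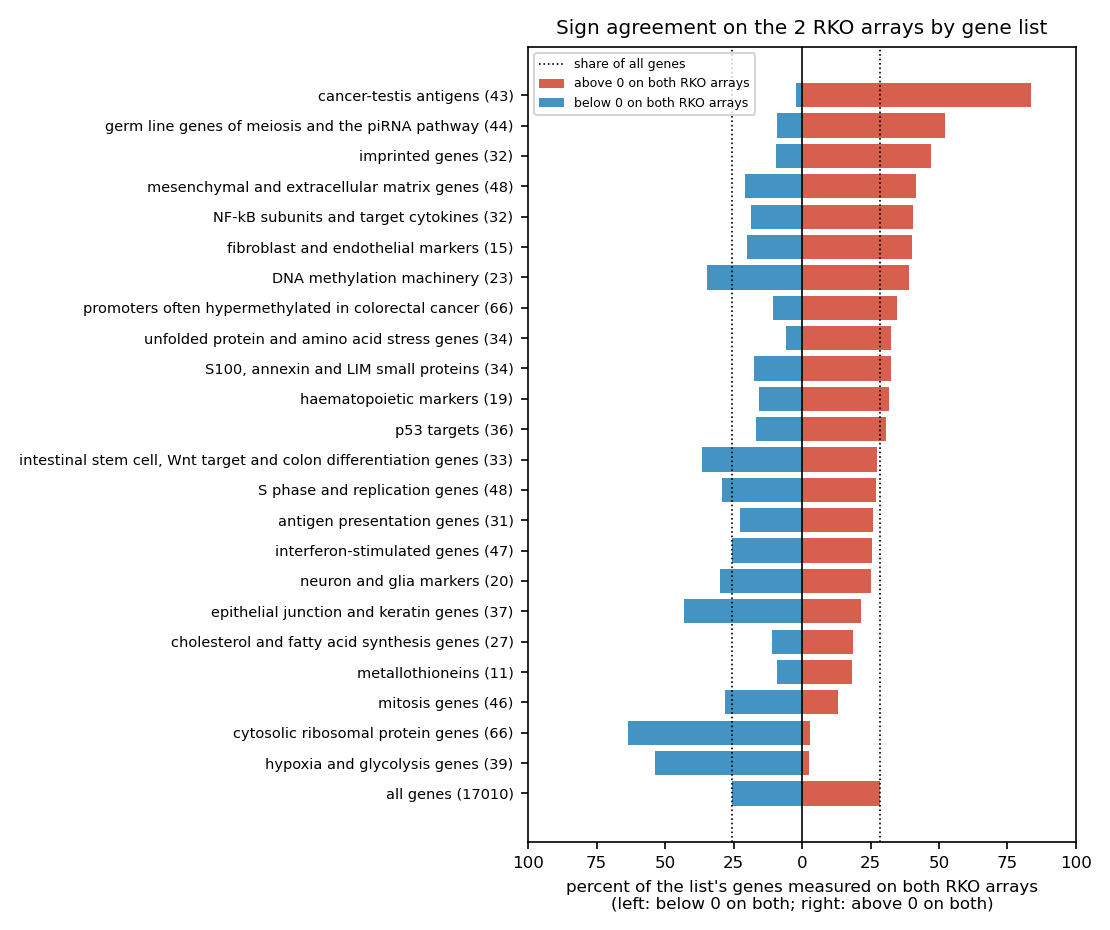
Share of each gene list (percent of its genes with a value on both RKO arrays, number in brackets) above 0 on both RKO arrays (red, right) and below 0 on both (blue, left), with dotted lines at the shares of all genes (28.4% and 25.5%). Cancer-testis antigens, some of them near-identical copies, extend furthest right at 83.7%, and ribosomal protein and hypoxia genes furthest left at 63.6% and 53.8%.

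Defence genes had mixed signs in RKO. Of 47 interferon-stimulated genes 12 (25.5%) lay above 0 on both arrays and 12 (25.5%) below, near the 28.4% and 25.5% of all genes, with medians of 0.20 and -0.33, where HT29 had -0.72 and 3.19. IFI27 lay at 3.38 and 5.07 and the DNA sensor IFI16 at 2.46 and 5.12, with SP110 at 1.04 and 1.99. Antigen presentation genes split 8 (25.8%) against 7 (22.6%) of 31, with CD74, the class II chaperone, at 1.25 and 1.75 (the latter a shared ratio), the stress ligand ULBP2 at 0.65 and 1.22, the immunoproteasome subunit PSMB8 at -0.64 and -0.95 and the peptidase ERAP2 at -0.67 and -0.50. Of NF-kB genes 13 of 32 (40.6%) lay above on both and 6 (18.8%) below, among them NFKBIZ (0.56 and 3.29), IL18 (2.66 and 0.78) and TRAF1 (0.56 and 1.01) above and CCL28 (-1.45 and -0.90, shared ratios) below. Metallothioneins had a median of -0.36 with shRNA 49 and 2.98 with shRNA 51, and 2 of 11 (18.2%), MT2A (0.39 and 4.24) and MT3 (0.20 and 2.21), were above on both, while MT1F (-0.91 and -0.70) was below. For MT3 that rests on 1 probe (0.61 and 4.08), the other being at -0.21 and 0.33.

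Growth and stress genes had mixed signs too, to be read against the 28.4% above and 25.5% below of all genes. Of 36 p53 targets 11 (30.6%) lay above 0 on both, near that share, and 6 (16.7%) below, with TP53INP1 (1.10 and 1.4), RRM2B (0.94 and 1.78), TNFRSF10A (0.86 and 0.92) and MDM2 (0.84 and 0.86) among the higher. S phase genes split 13 (27.1%) above and 14 (29.2%) below of 48, near the shares of all genes, with RPA3 (0.54 and 1.01), PRIM2 (0.44 and 1.44), RRM2 (0.36 and 0.78) and E2F2 (-0.67 and -0.36). Mitosis genes split 6 (13%) above and 13 (28.3%) below of 46, with TOP2A (-0.58 and -1.07), MAD2L1 (-0.60 and -0.49), BUB3 (0.51 and 0.77, with 1 of 4 probes at -0.93 and 0.09) and TPX2 (0.48 and 0.59). Unfolded protein and amino acid stress genes were above on both for 11 of 34 (32.4%) and below for 2 (5.88%), with CEBPB at 1.05 and 1.16, HSP90B1 at 0.48 and 0.52, and the 2 subunits of an amino acid transporter in opposite directions, SLC3A2 at 1.14 and 0.40 and SLC7A5 at -1.13 and -2.22. Lipid synthesis genes split 5 (18.5%) above and 3 (11.1%) below of 27, with NSDHL (0.90 and 0.69), SQLE (0.88 and 0.44), SCD (-0.49 and -2.06) and ELOVL6 (-0.97 and -0.20). In limma 0 genes of these defence, growth and stress lists passed with all ratios, and MT2A did without shared ratios (adjusted p = 0.0444).

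Markers of cell types that a colon cancer line should lack did not pass either with all ratios in the fit. Their shares are to be read against the 28.4% above and 25.5% below of all genes. Of fibroblast and endothelial markers 6 of 15 (40%) lay above 0 on both arrays and 3 (20%) below, with ENG at 1.82 and 3.39, VWF at 0.42 and 0.48, DCN at 0.41 and 0.62 and LUM at -0.43 and -1.47, DCN and LUM from shared ratios. Of neuron and glia markers 5 of 20 (25%) lay above and 6 (30%) below, near those shares, with NEFH (1.03 and 4.76), PRPH (0.82 and 1.95), SNAP25 (-0.52 and -3.35, shared ratios) and SLC1A3, named above. In limma without shared ratios NEFH passed (adjusted p = 0.0196). Of haematopoietic markers 6 of 19 (31.6%) lay above and 3 (15.8%) below, with CD68 (0.44 and 3.33), HBA1 (0.65 and 1.12), CD79B (0.59 and 0.48, shared ratios) and NKG7 (-1.16 and -0.40, the latter a shared ratio). Their part in the rise of VIM and HCLS1 was not tested.

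Most of the 343 higher genes of RKO were not 2-fold higher on both arrays of another line. Of them 51 (14.9%) were so in DLD1, which is 15.1% of its 338, where 1.89% of all DLD1 genes were. In HT29 57 (16.6%) were so, 21.3% of its 267, where 1.57% of all HT29 genes were, and 29 were so in all 3 lines. The 29 included VCX3A, VCX, VCX2, GAGE7, CTAG1A, PAGE2, PAGE5, FAM50B, RAB34, SOHLH1, KRT7, FSTL1 and NEFH. The remaining 264 were in neither. In these overlaps a gene blank on an array of DLD1 or HT29 counts as not 2-fold changed in that line. With a value on all 4 arrays of DLD1 and HT29, 94 of the 343 (27.4%) stayed within 2-fold on each, against 67.1% of all genes measured in RKO. On the UHRF1 array 61 of 337 (18.1%) were at least 2-fold higher, against 3.66% of all genes there. Of the 110 lower genes 5 (4.55%) were 2-fold lower on both arrays in DLD1, 7.46% of its 67, where 0.375% of all DLD1 genes were. In HT29 5 (4.55%) were so, 7.25% of its 69, where 0.407% of all HT29 genes were, and 0 were so in all 3 lines.

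The difference itself, RKO minus the mean of DLD1 and HT29, was tested in the same model. It called 0 genes higher in RKO (0.0%) and 0 lower (0.0%), and its adjusted p was nowhere under 0.464, while 1332 genes had an unadjusted p under 0.05, 712 higher and 620 lower. The difference was 4.87 ± 0.34 for S100A10, 4.43 ± 0.34 for VIM, 4.94 ± 0.50 for S100A2, 3.46 ± 0.32 for TNFRSF14 and 2.93 ± 0.30 for IFFO1, each at an adjusted p of 0.464 (SE, n = 6 arrays). NPW, a neuropeptide gene (2.30 and 2.16 in RKO), EVI2A (4.02 and 3.33) and the actin-binding PARVG (2.22 and 1.78) also lay among the 8 with the smallest p on that side, and NPW with shRNA 49 and EVI2A with shRNA 51 hold shared ratios. For CTAG1A the difference was 0.02 ± 0.30 (adjusted p = 0.991).

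On the side lower in RKO were HEG1 (-3.88 ± 0.36), PCP4 (-3.54 ± 0.40) and RRP15 (-2.23 ± 0.32), with adjusted p from 0.464 to 0.522. The peptidase KLK11 and the developmental factor SIX2 stood there too. DLD1 had high values for them, at 4.87 and 3.48 for KLK11 and at 3.58 and 4.31 for SIX2, while RKO had -0.15 and -1.0 for KLK11 and -0.31 and -0.42 for SIX2, shared ratios for KLK11 on both arrays and for SIX2 with shRNA 51. The receptor activity-modifying protein RAMP1 lay at 0.21 and -1.84 in RKO and between 0.89 and 2.81 in the other lines. FSTL1 (-2.84 ± 0.34) and KRT7 (-3.01 ± 0.41) lay above control in RKO and further above it in DLD1 and HT29.

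Chromosome X held 38 of the 343 higher genes (11.1%), against 3.64% of the measured genes, and 20 of the 38 were on the cancer-testis list. Of its 620 measured genes 6.13% were at least 2-fold higher on both arrays, against 2.02% of all genes. In the order of RefSeq genes measured on both arrays, 37 of the higher genes formed 18 runs of neighbours. The longest was MAGEA2B, CSAG1 and MAGEA12 on chromosome X. Others were MAGEC1 with MAGEC2, CT45A1 with CT45A5, the cathepsins CTSS and CTSK on chromosome 1 and ZFP42 with TRIML2 on chromosome 4. Several runs on chromosome X, CT45A1 with CT45A5 among them, join copies of 1 family, so their probes may read the same RNA. How many runs that many genes would form if placed at random was not worked out, so the count is a description only. The lower genes formed 3 runs of 2, among them the glucose transporters SLC2A14 and SLC2A3 on chromosome 12, whose sequences are alike, so which of them was measured is uncertain.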

How the data were processed

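Total RNA was read on 2-colour Agilent arrays, per the labels. Each array file as deposited by the authors holds a log ratio per probe, some of them blank, treated here as log2. According to the submitters' processing notes limma was used. The sources used here give no log base, background correction, normalization or direction, and nothing was normalized again. Without signal strengths dim probes could not be filtered, and precision is limited by the number of arrays.

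Probes were named through the platform annotation supplied by GEO: 29341 of 41000 had 1 symbol, 33 several and 11626 none, and of those with 1 symbol 99.85% could be matched by Entrez identifier to RefSeq genes (GRCh38.p14, used for names, chromosomes, gene order and promoters). Probes of a symbol were averaged (18646 genes, 7610 with more than 1 probe). Groups came from the sample labels. A gene was tested with values on at least 5 of the 6 DNMT1 arrays and on both RKO arrays. limma 3.58.1 (R 4.3.3, data.table version 1.17.8) fitted 1 coefficient per line and an shRNA term, leaving 2 residual degrees of freedom, with 2.86 added by moderation. P-values are two-sided, adjusted by Benjamini and Hochberg, threshold 0.05. A gene with 1 array missing was fitted on 5. If a line's arrays share 1 control RNA, the test leaves out that control's spread. Simulated data took independent normal noise and the shRNA effect from the fit, with line means at 0. In them 100 genes per size were shifted, in RKO alone. For the RKO test, 24% of genes changed by 2 and 70% of those changed by 4 (log2) were recovered. For the difference 0% and 31% were, with 1 false call each. The simulation held no shared ratios, no shared control RNA and no other line responses, so its false calls do not give the rate in these data. Summaries and plots used Python 3.11.15 (pandas 2.3.3, numpy 2.4.6, matplotlib 3.10.9).

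The members and gene lists were chosen with earlier results of these data known. Genes are named by rule: DNMT1 and the methylation list, every gene that passed, the 20 highest and 15 lowest by the smaller of the 2 RKO ratios with an unshared ratio on each array, 4 members per list with the largest such ratio and a few genes known to be silenced in colon cancer (1 of them not analysed here), and the 8 smallest p-values per side of the difference. Further members and lower or higher neighbours in the text were chosen after their values were seen. Alternatives were another normalization, scaling, probe summary, filter on missing or shared ratios, model and fold, and each array left out.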

Additional observations from a re-analysis of the deposited data

Results flagged for a closer look

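HEG1, CCN2, SLC2A3 and ADM lay at least 2-fold below control on both RKO arrays and at least 2-fold above it on both arrays of another line, so that the arrays of the 2 lines lay on opposite sides of control (ADM in DLD1 lay at 1.00 and 2.03). These pairwise differences were not tested. For HEG1 the RKO mean minus the HT29 mean was -4.49. For CCN2, SLC2A3 and ADM the RKO mean minus the DLD1 mean was -3.31, -6.87 and -2.64. SLC2A3 lay at -1.31 and -4.73 in RKO and at 2.93 and 4.76 in DLD1. CCN2 lay at -1.55 and -1.70 in RKO and at 1.13 and 2.24 in DLD1.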

How the results depend on the processing

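The 10 genes that rose in RKO became 0 without the shRNA term (the model without that replicate block), 0 with the RKO arrays alone, 28 after quantile normalization, 20 with equal median absolute deviations, 34 with all 6 arrays required and 132 without shared ratios (10987 genes tested). Of the 10, 9 stayed under quantile normalization, 9 under equal deviations and 9 of the 9 still tested without shared ratios. Leaving out 1 array gave between 0 and 240. The 0 genes that fell became 2 after quantile normalization and 12 without shared ratios, and between 0 and 71 with 1 array left out. Genes higher in RKO than in the other lines became 1 without shared ratios, and between 0 and 39 with 1 array left out, and genes lower between 0 and 23. The 240, 71, 39 and 23 were found without the RKO array with shRNA 49. The 343 genes at least 2-fold higher on both RKO arrays became 861 at a fold of 1.5, 86 at a fold of 4 and 1235 when the mean of both arrays was used, and the 110 lower genes became 562, 6 and 552, by construction of those limits. DNMT1 kept -2.81 without shared ratios and then passed (adjusted p = 0.0139). Apart from the construction of a limit or filter, the cause was not tested. No called value changed sign under an alternative. Of 400 values of gene means without a test 25 moved by more than the spread between arrays, and 11 of 92 list medians did. A dim probe could not be told from a bright one, so low signal limits these ratios to an unknown degree.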

Other observations

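Probes without a single gene symbol also moved on both RKO arrays. Of 9621 such probes with a value on both, 162 (1.68%) were at least 2-fold higher and 101 (1.05%) at least 2-fold lower, against 522 (2.0%) and 245 (0.938%) of 26130 probes with a symbol. Of the 162 higher probes 117 held an unshared ratio on both arrays. Of the 343 higher genes 271 held an unshared ratio on both arrays, and of the 110 lower genes 77 did.

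The letters CACGTG and CGGAAG were searched on both strands in the 250 bases before each RefSeq start. Of 34 named genes at least 2-fold higher on both RKO arrays with a promoter in the table, 6 (17.6%) held CACGTG, namely SOHLH1, DAZL, STK31, PAGE5, GCNA and PARVG, and the others did not, VCX3A, VIM, S100A10 and UCHL1 among them. CGGAAG was in front of 7 of the 34 (20.6%). CACGTG was in 7.73% of all 27305 promoters and in 10.2% of those of genes measured on both RKO arrays, and CGGAAG in 19.4% and 28.2%. The 34 genes were named for their values and the table covers too few of the 343 higher genes, so no comparison was made, and a match describes letters and not a bound site.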
